A study of Mus musculus with 12 samples.

Results

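The alpha-defensin genes and 5 other genes of Paneth cell secretory granules were followed in scraped mucosa of the mouse ileum. Every row of the deposited expression table whose symbol begins with Defa was taken, together with Lyz1, Mmp7, Itln1, Ang4 and Mptx2. These were 50 of 55891 rows, of which 45 were Defa rows (28 annotated as protein-coding and 17 pseudogenes named Defa-ps). The 12 mice gave 1 library each at baseline, 6 labelled Erbb3-FF and 6 labelled ERBB3-dIE. Litter A held Erbb3-FF mice 3 to 6 and ERBB3-dIE mice 4 to 6, and litter B held Erbb3-FF mice 1 and 2 and ERBB3-dIE mice 1 to 3. The labels expand neither FF nor dIE, and they give no driver line, deleted exons, strain, age or sex. Erbb3 encodes a receptor tyrosine kinase that binds neuregulins, and the series title ties it to the barrier of the small intestine.

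Paneth cells sit at the base of the crypts of the small intestine and release granules filled with antimicrobial proteins into the crypt lumen. In the mouse most of these are alpha-defensins, small cysteine-rich peptides made as precursors that the matrix metalloproteinase Mmp7 cuts into their active form. Their genes are related copies in a single cluster, some of them near-identical, and the number and kind of copies is known to differ between inbred strains. A scraping holds epithelium with some of the tissue below it, so fewer Paneth cells and less defensin RNA per Paneth cell cannot be told apart.

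The likeness of the copies bears on every value below, so coding sequences are shown for 5 of them, chosen after the values were seen. Defa24 and Defa30 are 2 abundant copies, Defa21 and Defa2 had high TPM in only some mice, and Defa22 is the nearest relative of Defa21. All were read from GENCODE M21 transcripts (GRCm38). In Defa30 and Defa21 capitals mark bases that differ from Defa24, and in Defa22 and Defa2 bases that differ from Defa21. Bases missing from a copy carry no mark.
Defa24: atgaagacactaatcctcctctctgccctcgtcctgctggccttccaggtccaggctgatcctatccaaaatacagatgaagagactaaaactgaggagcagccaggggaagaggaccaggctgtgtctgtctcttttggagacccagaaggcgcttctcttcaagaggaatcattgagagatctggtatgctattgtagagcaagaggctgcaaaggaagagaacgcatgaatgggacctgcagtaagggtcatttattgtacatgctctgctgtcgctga
Defa30: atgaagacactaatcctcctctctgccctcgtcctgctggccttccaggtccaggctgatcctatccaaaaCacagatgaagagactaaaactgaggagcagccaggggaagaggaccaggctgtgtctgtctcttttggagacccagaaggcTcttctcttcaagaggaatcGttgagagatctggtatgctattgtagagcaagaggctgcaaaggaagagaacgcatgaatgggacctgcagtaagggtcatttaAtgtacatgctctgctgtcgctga
Defa21: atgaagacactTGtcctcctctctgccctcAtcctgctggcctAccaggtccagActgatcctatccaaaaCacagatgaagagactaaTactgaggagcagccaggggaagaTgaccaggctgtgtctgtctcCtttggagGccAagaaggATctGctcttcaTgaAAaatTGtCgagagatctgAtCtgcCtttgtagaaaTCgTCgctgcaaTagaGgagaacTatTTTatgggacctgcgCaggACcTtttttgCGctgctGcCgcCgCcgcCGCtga
Defa22: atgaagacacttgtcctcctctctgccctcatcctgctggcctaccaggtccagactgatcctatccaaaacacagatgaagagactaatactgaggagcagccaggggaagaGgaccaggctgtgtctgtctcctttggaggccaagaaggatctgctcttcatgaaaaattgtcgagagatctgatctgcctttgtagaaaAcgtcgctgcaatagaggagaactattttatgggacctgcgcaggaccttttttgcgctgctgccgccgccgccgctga
Defa2: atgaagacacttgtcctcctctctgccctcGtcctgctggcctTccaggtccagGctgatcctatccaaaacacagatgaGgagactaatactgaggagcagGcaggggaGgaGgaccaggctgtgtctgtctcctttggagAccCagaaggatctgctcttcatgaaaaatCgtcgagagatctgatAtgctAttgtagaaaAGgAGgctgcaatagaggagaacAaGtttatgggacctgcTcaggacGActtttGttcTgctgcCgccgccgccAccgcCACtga
Defa30 differed from Defa24 at 4 positions (98.6% identity), and Defa22 from Defa21 at 2 (99.3%). Defa21 was further from Defa24, with 55 differing alignment columns (81.1%), and Defa2 differed from Defa21 at 30 (89.7%).

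Over the 378 pairs of the 28 coding sequences, identity ran from 65.0% to 100%, with a median of 83.5%. In 6 pairs the coding sequences were identical: Defa2 with Defa33, Defa20 with Defa32, Defa3 with Defa17, Defa23 with Defa31, Defa36 with Defa37, and Defa42 with Defa43. Joining copies at 95% identity gave 7 families. The libraries were read as single 75-base reads, so every 75-base window of each Defa transcript was searched in the transcripts of all other genes. A median of 53.0% of a row's windows also lay in another gene. Defa2, Defa20, Defa32 and Defa33 had no window of their own. Defa24 was nearly free of sharing (6.7% of windows), as was Defa39 (6.5%), and Defa30 shared 20.7%. The split of reads among near-identical copies is therefore uncertain, and sums over Defa rows and over families are given beside the single copies.

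**Figure D1:**
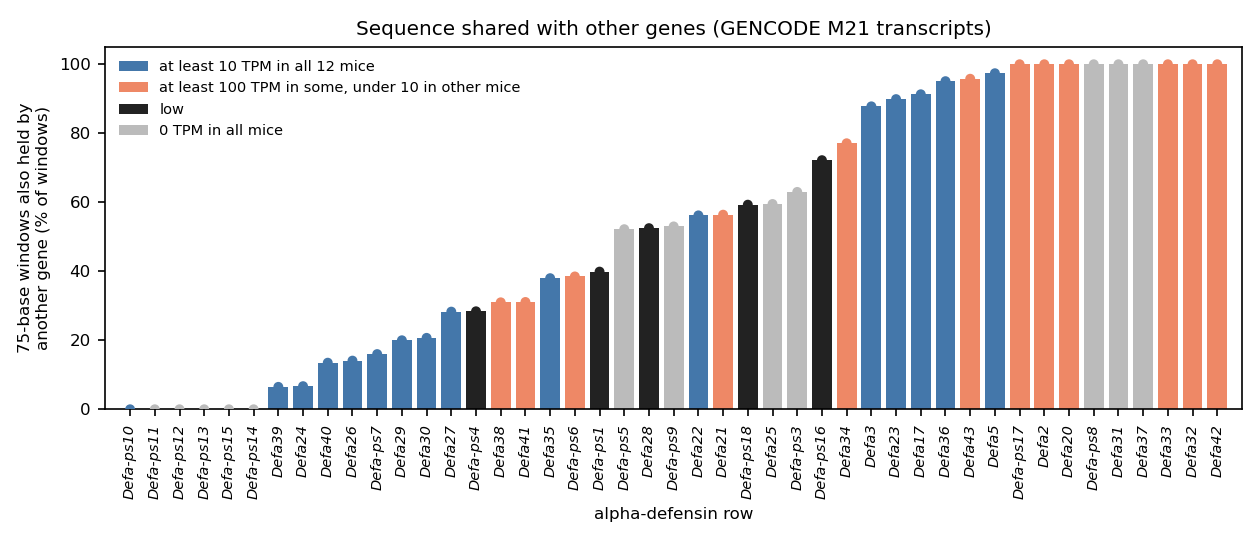
Share of the 75-base windows of each alpha-defensin row that another gene also holds (vertical axis, percent, GENCODE M21 transcripts), with rows on the horizontal axis in rising order and colours for the class of their TPM over the 12 mice. Windows were shared from 0% in 6 rows to 100% in rows such as Defa2, Defa20, Defa32 and Defa33.

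Promoter letters were compared as well. RefSeq promoter windows (GRCm38.p6, 250 bases before to 50 after the start) were matched for 16 of the 45 Defa rows and searched on both strands for ATCAAAG, a core form of the site read by the Tcf factors of the Wnt pathway, and for the TATA sequence TATAAA. Below are 90 bases of the plus strand for Defa21, Defa2 and Defa23, with the shared stretches in capitals. TPM of Defa21 and Defa2 were high in some mice only, and those of Defa23 in all. The positions are chr8:21025455-21025544 for Defa21, chr8:21378427-21378516 for Defa2 and chr8:21054950-21055039 for Defa23.
Defa21: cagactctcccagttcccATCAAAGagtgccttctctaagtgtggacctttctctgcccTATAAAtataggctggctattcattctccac
Defa2: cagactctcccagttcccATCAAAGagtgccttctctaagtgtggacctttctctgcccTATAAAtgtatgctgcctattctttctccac
Defa23: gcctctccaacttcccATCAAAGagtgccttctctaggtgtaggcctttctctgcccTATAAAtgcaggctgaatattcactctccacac
In Defa21 and Defa2 the first base of ATCAAAG lay 72 bases before the start and that of TATAAA 31 bases before it. In Defa23 these distances were 74 and 33 bases. ATCAAAG or its reverse complement was in 13 of 16 Defa windows, the exceptions being Defa38, Defa42 and Defa43, against 3.73% of 32851 windows of the same length. TATAAA was in 15 of 16, all but Defa28, against 13.6% of all windows. Each motif was in 1 of the 5 windows of the other granule genes. The windows of Defa21 and Defa22 were identical, as were those of Defa2 and Defa20, and Defa21 and Defa2 had 97.7% identity. Identity with Defa21 was 82.1% for Defa23 and 66.9% for Defa30, copies found in all mice, as Defa22 also was. Defa36 and Defa35 had 98.0% identity. Windows of such related copies are not independent cases, so the motif counts beside the share of all windows carry no test. A match describes the letters and does not show a bound site.

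The library values are TPM, estimated reads per base of transcript, scaled so that every library sums to 1000000. This makes genes of unlike length comparable, and the read depth of a library is unknown. Erbb3 itself was at 117 ± 23.7 TPM in Erbb3-FF mice (SD, n = 6) with 142 ± 39.9 TPM in the ERBB3-dIE group (n = 6). Its log2 difference of 0.16 (SE 0.11) stayed above the threshold (limma adjusted p = 0.402), and a gene-level sum does not check a deletion of single exons. The ileal bile acid carrier Fabp6 was high in all mice, at 6460 to 45972 TPM. One library stood apart from its litter label: Erbb3-FF mouse 3, labelled litter A, had 45972 TPM of Fabp6, the other 6 mice of litter A had 6460 to 10690.1 TPM, and the 5 mice of litter B had 27010 to 36208 TPM. Tests of litter and values within litter A are therefore also given without that mouse.

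Among the 45 Defa rows, 16 held at least 10 TPM in all 12 mice, and 12 reached 100 TPM in some mice while staying under 10 TPM in at least 1 other. Another 5 rows were low throughout, and 12 (9 pseudogenes and Defa25, Defa31 and Defa37) were at 0 in all mice. All windows of Defa31 lie in Defa23 and all windows of Defa37 in Defa36, so a 0 for these does not show that the copy was silent.

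Defa24 was the protein-coding copy with the highest mean TPM. Its TPM in litter A were 2803, 5236, 8739 and 5515 in Erbb3-FF mice 3 to 6 and 5158, 6468 and 8271 in ERBB3-dIE mice 4 to 6. In litter B they were 4179 and 2634 in Erbb3-FF mice and 3666, 6318 and 5977 in ERBB3-dIE mice. The genotypes overlapped in both litters, and the log2 difference (ERBB3-dIE minus Erbb3-FF, on the log2(TPM + 0.5) scale) was 0.46 (SE 0.27, 95% interval -0.13 to 1.06, limma adjusted p = 0.357).

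Defa3 ran from 2071 to 6862 TPM among Erbb3-FF mice (median 4336), with 2952 to 5909 TPM among ERBB3-dIE mice (median 4763). Defa23 ran from 1839 to 5862 TPM (median 3864) and from 3226 to 5986 TPM (median 4908). Defa30 ran from 1725 to 5069 TPM (median 2820) and from 2014 to 4319 TPM (median 3272). These copies belong to the family of Defa24, and in each the ranges of the genotypes overlapped. Their log2 differences were 0.23 for Defa3, 0.53 for Defa23 and 0.21 for Defa30, with limma adjusted p of 0.673, 0.274 and 0.687. Defa35, of the Defa5 family, held 283 to 1517 TPM in Erbb3-FF mice (median 723) and 489 to 1621 TPM in ERBB3-dIE mice (median 1071), a log2 difference of 0.56 (limma adjusted p = 0.441).

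The pseudogene Defa-ps7 had the highest mean TPM of all Defa rows, with 2931 to 10712.6 TPM in Erbb3-FF mice (median 8788) and 5343 to 11865 TPM in ERBB3-dIE mice (median 6514). Defa-ps7 made up 11.2% to 38.2% of a mouse's summed Defa TPM. Its transcript is 168 bases long, against 419 bases for Defa24, and TPM are scaled up as length falls. In the authors' deposited table its mean normalised count was 547, against 11180 for Defa24. Its mean TPM over the 12 mice was 7521, against 5414 for Defa24. How far length accounts for this was not tested. The log2 difference of Defa-ps7 between genotypes was 0.11 (95% interval -0.71 to 0.93, limma adjusted p = 0.894).

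A set of Defa copies, chosen after their values were seen, was high in 5 mice and near 0 in the other 7. Defa21 was at 1386, 932 and 3451 TPM in Erbb3-FF mice 1, 3 and 5 and in ERBB3-dIE mice 2 and 6 at 2353 and 2513 TPM. In Erbb3-FF mice 2, 4 and 6 it was at 0, and in ERBB3-dIE mice 1, 3, 4 and 5 at 2.49, 1.24, 0.45 and 1.10 TPM. The 5 mice came from both genotypes and both litters, and no mouse lay between 2.49 and 932 TPM.

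Defa2, 89.7% identical to Defa21 in coding sequence, followed the same mice. It was at 1594, 859 and 3016 TPM in Erbb3-FF mice 1, 3 and 5 and in ERBB3-dIE mice 2 and 6 at 2165 and 2598 TPM. In the other 7 mice it was at 0, except for 1.48 TPM in ERBB3-dIE mouse 3. Defa33 was at 577 to 2103 TPM in the 5 mice and at most 1.15 TPM elsewhere. Defa2 and Defa33 have no window of their own, so values near 0 do not show that these copies were silent. Defa43, of another family, held 425 to 1283 TPM and was at 0 in the other 7. It failed the filter of at least 1 TPM in at least 6 libraries and was not tested.

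Lower copies split between the same mice. Defa38 was at 325 to 993 TPM in the 5 mice and at most 15.4 TPM in the others, and Defa41 at 91.2 to 259 TPM against at most 2.23 TPM. Defa22, the relative of Defa21 with an identical promoter window, was high in the 5 mice (1620.2, 1009.5 and 3669 TPM in the Erbb3-FF mice, 2605 and 2666 TPM in the ERBB3-dIE mice) but was not at 0 in the rest. There it held 157, 257 and 259 TPM in Erbb3-FF mice 2, 4 and 6 and 193, 268, 171 and 234 TPM in ERBB3-dIE mice 1, 3, 4 and 5. Defa36 showed a smaller gap, from 707 to 1959 TPM in the 5 mice, against 147 to 358 TPM in the others.

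The search was widened to all 55891 rows, asking for at least 1 TPM in each of the 5 mice and a lowest value over 3 times the highest of the other 7. Only 8 rows met it: Defa2, Defa21, Defa22, Defa33, Defa38, Defa41, Defa43 and 1 unnamed long non-coding RNA at 1.85 to 2.48 TPM. Defa34 (456 to 1295 TPM in the 5 mice, at most 155 TPM in the others) fell just short. So did Defa28 (4.80 to 18.4 TPM against at most 1.62 TPM). Defa20, Defa32, Defa36 and Defa-ps6 were also higher in each of the 5 mice than in any other, by smaller gaps. No row (0) had the opposite pattern. Since Defa21 set the split, this is a description and carries no test. In the order of GENCODE M21 the 7 copies that met the search stand at places 5, 10, 13, 15, 26, 27 and 36 of the 45 Defa rows. Copies found in all mice, such as Defa23, Defa30 and Defa3, lie between them.

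Copies without a private window gave mixed values. Defa20 was at 2041, 1161 and 3860 TPM in Erbb3-FF mice 1, 3 and 5 and in ERBB3-dIE mice 2 and 6 at 3071 and 2645 TPM. It was at 0 in Erbb3-FF mouse 2 and ERBB3-dIE mouse 4, and held 79.5 to 581 TPM in the remaining mice. Its coding twin Defa32 was at 0 in Erbb3-FF mice 4 and 6, where Defa20 held 491 and 581 TPM, and at 341 and 256 TPM in the 2 mice in which Defa20 was at 0. The zeros of these twins thus fell in different mice, and their sum with Defa2 and Defa33 was above 0 in all 12. Defa42, all of whose windows lie in Defa43, was at 423 TPM in Erbb3-FF mouse 5 and 500.3 TPM in ERBB3-dIE mouse 6, and at most 23.5 TPM in the others.

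A family sum keeps the reads that were split between the copies of that family. It can still shift with the split, since TPM depend on transcript length (351 bases for Defa38 and 508 for Defa29). Some windows also lie outside the family, as those that Defa39 shares with Defa-ps7. The Defa2 family (Defa2, Defa20, Defa32 and Defa33) summed to 3262 to 11357 TPM in the 5 mice and to 256 to 653 TPM in the other 7. Defa21 with Defa22 summed to 1941 to 7119.8 TPM in the 5 and to 157 to 269 TPM in the rest. The Defa29 family (Defa29, Defa38, Defa39, Defa42 and Defa43) summed to 1052 to 3476 TPM against 186 to 394 TPM. In these 3 families no mouse lay between the sets.

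The other families did not divide the mice in this way. The Defa3 family (Defa3, Defa17, Defa23, Defa24, Defa30 and Defa31) summed to 14017, 8894, 27512, 20003 and 24469 TPM in Erbb3-FF mice 1, 3 and 5 and ERBB3-dIE mice 2 and 6, and to 9646 to 21516 TPM in the other 7. The Defa5 family summed to 1858 to 5653 TPM in the 5 and 1094 to 3454 TPM in the 7. Of the 16 rows found in all mice, 14 had a highest value 2.94 (Defa30) to 7.33 (Defa39) times the lowest, while Defa36 and Defa22 reached 13.3 and 23.4 times.

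**Figure D2:**
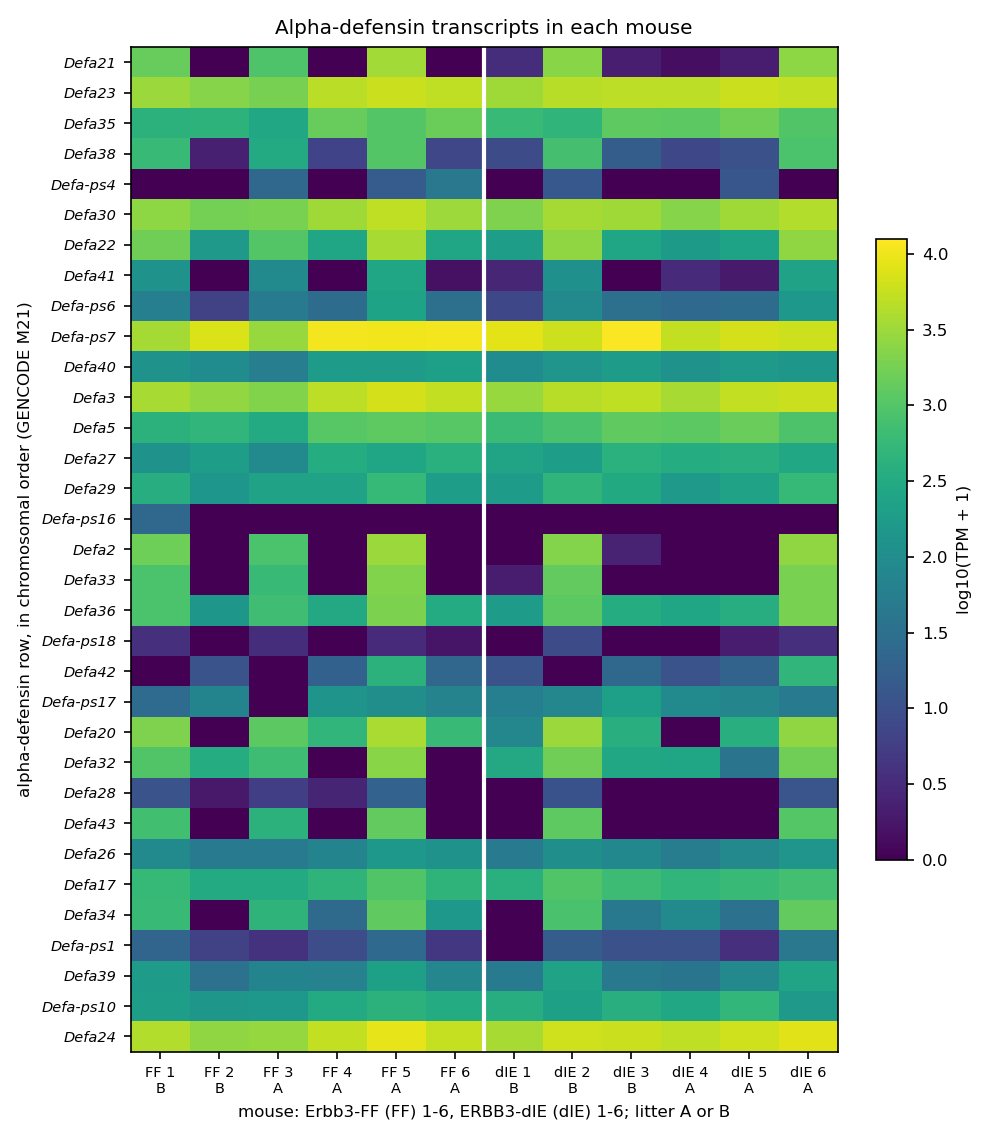
Level of the 33 alpha-defensin rows above 0 in at least 1 mouse (rows, in the order of GENCODE M21) in each of the 12 mice (columns, with litter), as log10(TPM + 1). Defa21, Defa2, Defa33, Defa43, Defa38 and Defa41 are bright in Erbb3-FF mice 1, 3 and 5 and ERBB3-dIE mice 2 and 6 and dark elsewhere, while Defa23, Defa3, Defa30 and Defa24 are bright throughout.

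The make-up of the defensin pool differed between mice. The 12 rows that reached 100 TPM in some mice and stayed under 10 TPM in at least 1 other were summed. They gave 27.2% to 29.3% of the summed Defa TPM in Erbb3-FF mice 1, 3 and 5 and ERBB3-dIE mice 2 and 6. In the other 7 mice they gave 1.69% to 2.62%. The rows were picked by their values in these same 12 mice, so some difference in their share was built in, and it carries no test. Some of these rows, such as Defa38 and Defa-ps6, were above 0 in all 12 mice. Between 30 and 32 Defa rows were above 0 in the 5 mice, and between 23 and 28 in the 7. Defa24, in contrast, gave 13.1% to 19.7% in every mouse.

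All 45 Defa rows together made up 1.94% to 6.67% of a mouse's TPM. In litter A the sum was 20358, 34271, 66698 and 35419 TPM in Erbb3-FF mice 3 to 6 and 26196, 34029.5 and 53949.7 TPM in ERBB3-dIE mice 4 to 6. In litter B it was 31003 and 19407 TPM in Erbb3-FF mice and 23989.6, 46342 and 37146 TPM in ERBB3-dIE mice. Erbb3-FF mouse 5 was the highest of all and its littermate, mouse 3, the second lowest, so the genotypes overlapped fully.

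The means of the sums were 34526 ± 17191 TPM in Erbb3-FF mice and 36942 ± 11571 TPM in ERBB3-dIE mice (SD, n = 6 each). Their log2 ratio was 0.10, against a pooled SD between mice of 0.56 on the log2 scale. The ratio was -0.04 in litter A alone (-0.26 without Erbb3-FF mouse 3), 0.51 in litter B alone and 0.40 without Erbb3-FF mouse 5. Without the pseudogene rows it was 0.13, and over the rows with at least 10 TPM in all mice it was 0.15. A sum over chosen members carries no test.

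**Figure D3:**
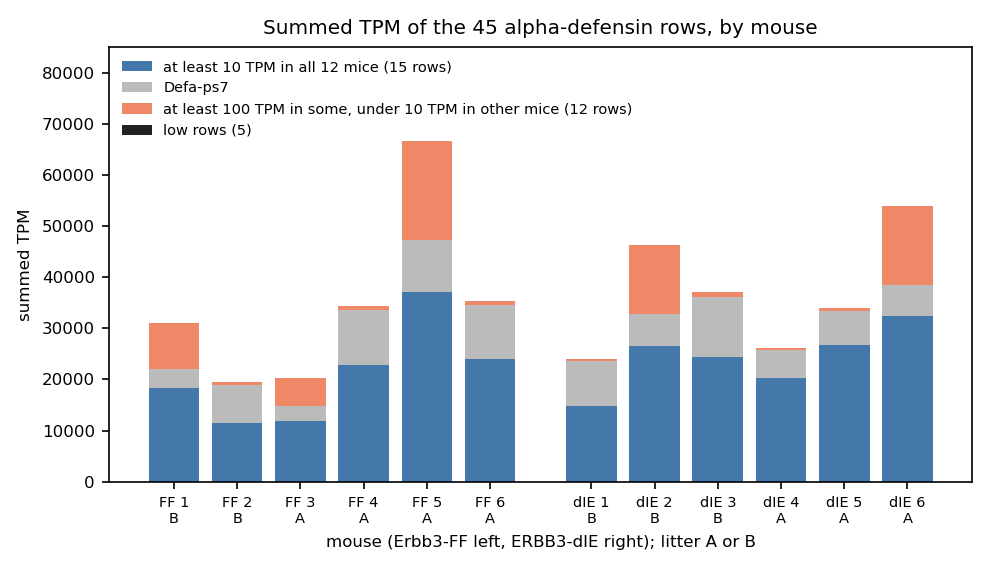
Summed TPM of the 45 alpha-defensin rows in each mouse (bars from 0, Erbb3-FF left and ERBB3-dIE right, litter below). Bars are stacked by rows at 10 TPM or more in all mice, Defa-ps7, rows at 100 TPM or more in some and under 10 TPM in other mice, and low rows. The sums run from 19407 to 66698 TPM. The part from rows over 100 TPM in some and under 10 TPM in other mice is 27.2% to 29.3% of the bar in 5 mice and at most 2.62% in 7.

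Mmp7, the protease that activates alpha-defensin precursors, was higher in ERBB3-dIE mice. In litter A it was at 38.0, 108, 131 and 99.7 TPM in Erbb3-FF mice 3 to 6 and at 234, 140 and 216 TPM in ERBB3-dIE mice 4 to 6. Litter B held 41.5 and 42.3 TPM in the Erbb3-FF mice, with 82.8, 70.9 and 179 TPM in the ERBB3-dIE mice. The genotypes did not overlap within either litter, but did across litters.

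Mean Mmp7 was 76.8 ± 41.0 TPM for Erbb3-FF, against 154 ± 68.0 TPM for ERBB3-dIE (SD, n = 6 each), and the log2 difference was 1.21 (SE 0.32, 95% interval 0.51 to 1.90, limma adjusted p = 0.0496). It was the only 1 of 35 tested members called between genotypes (against 5.36% of all 12605 tested genes called in either direction and 1.66% called higher in ERBB3-dIE), and a single call says nothing about the members as a group. The difference was 1.16 in litter A and 1.27 in litter B alone, with limma adjusted p of 0.234 and 0.266 in these smaller fits. In litter A without Erbb3-FF mouse 3 it was 0.77 (limma adjusted p = 0.179). The call is at the edge of the threshold: it was lost in 21 of 28 alternatives, among them 10 of the 12 fits that left out 1 mouse (adjusted p up to 0.116), and kept without Erbb3-FF mouse 3 (0.99, limma adjusted p = 0.0447) and without Erbb3-FF mouse 5 (1.32, limma adjusted p = 0.0359). Mmp7 shares no 75-base window with another gene.

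Markers of other cell types also differed between the mice. The 3 mice lowest for Mmp7, Erbb3-FF mice 1, 2 and 3, had summed B cell markers of 118 to 299 TPM, against 4.52 to 16.03 TPM in the other 9 (all 6 ERBB3-dIE mice among them, at 5.47 to 16.03). Of the 7 B cell markers all were above 0 in those 3 mice, and Cr2 and Fcer2a were at 0 in Erbb3-FF mouse 6. Summed enterocyte markers were 56912 to 72752 TPM in the 3 mice, against 11523 to 55848 TPM in the other 9. Summed stem cell markers were 69.6 to 132 TPM in the 3 mice. They were 112 and 124 TPM in ERBB3-dIE mice 1 and 2, the next lowest for Mmp7, and 233 to 291 TPM in all remaining mice. Summed markers of goblet cells, which secrete mucus, lay between 19092 and 31112 TPM in the Erbb3-FF group, all below the 33962 to 68584 TPM of the ERBB3-dIE group. Within each genotype, however, the goblet sums were highest in the mice lowest for Mmp7. Erbb3-FF mice 1, 2 and 3 held 27964 to 31112 TPM, against 19092 to 23308 TPM in the rest of that group. ERBB3-dIE mice 1 and 2 held 68584 and 59476 TPM, against 33962 to 48701 TPM in the rest of theirs. Of the 10 goblet markers 6 were called higher in ERBB3-dIE mice and 0 lower, and all 10 had a positive difference. Of the 10 enterocyte markers 4 were called lower and 0 higher, and 0 had a positive difference. Of the 8 Paneth markers Nupr1 and Mmp7 were called higher, and all 8 had a positive difference. All of these but Nupr1 are members followed here, Mmp7 itself among them, so they are not a separate list. Defa24 and Defa30 are the only Defa copies in it, while 19 of all 30 tested Defa rows had a positive difference. Over all tested genes 1.66% were called higher and 3.7% lower. The part of these cell types in the difference of Mmp7 was not tested.

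Mptx2, a pentraxin of the mucosa found in Paneth cells, was at 71.0, 229, 252 and 132 TPM in the Erbb3-FF mice of litter A, with 226, 195 and 324 TPM in their ERBB3-dIE littermates. Litter B held 54.7 and 47.5 TPM in the Erbb3-FF mice, with 96.1, 142 and 241 TPM in the ERBB3-dIE mice. The genotypes overlapped in litter A, also without Erbb3-FF mouse 3, and not in litter B. The log2 difference of 1.02 (SE 0.34, 95% interval 0.27 to 1.77) had an unadjusted p of 0.0119 in limma and did not pass after adjustment (0.107). The authors' deposited table gives 0.85 with an adjusted p of 0.0334 for Mptx2, and 1.10 with 4.68e-05 for Mmp7.

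Lyz1, the lysozyme of Paneth cells, which cuts bacterial cell walls, was the most abundant of the 5 granule genes. Levels of 528 to 2441 TPM in Erbb3-FF mice (median 1277) stood beside 759 to 2062 TPM in ERBB3-dIE mice (median 1419), a log2 difference of 0.33 (95% interval -0.37 to 1.03, limma adjusted p = 0.589). Itln1, a lectin that binds microbial sugars, held 269.8 to 909 TPM (median 482) and 407 to 776 TPM (median 555), a difference of 0.31 (adjusted p = 0.576 in limma). Ang4, a ribonuclease with antimicrobial activity, held 61.7 to 176 TPM (median 94.0) and 72.7 to 135 TPM (median 129), a difference of 0.34 (adjusted p = 0.376 in limma). In each of these 3 the genotypes overlapped.

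**Figure D4:**
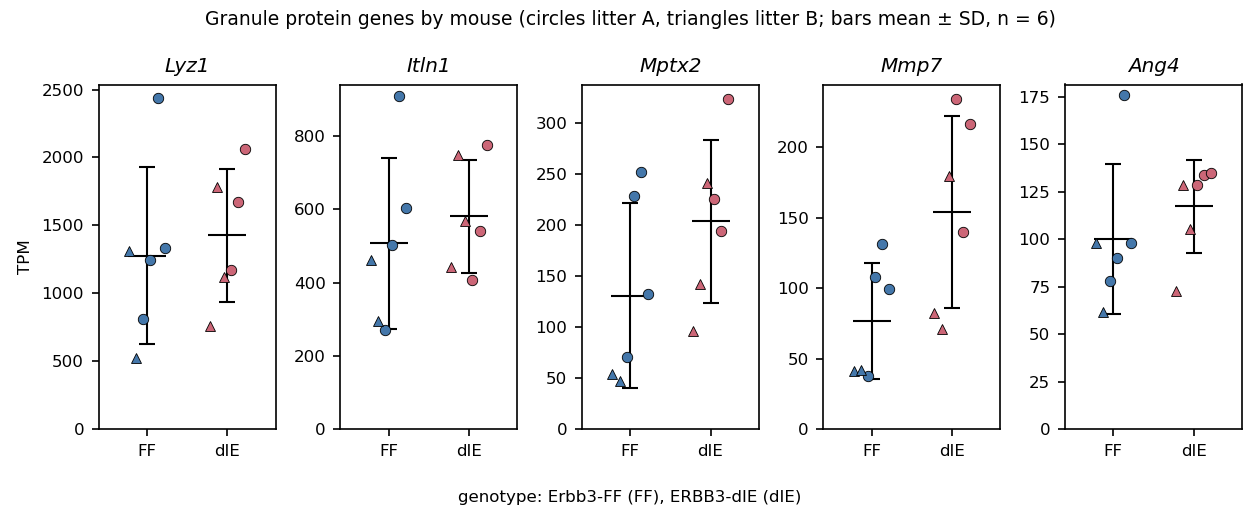
TPM of the 5 other granule genes in each mouse (vertical axes from 0), with Erbb3-FF in blue and ERBB3-dIE in red, circles for litter A, triangles for litter B, and bars for mean ± SD (n = 6 per genotype). For Mmp7 the blue points lie between 38.0 and 131 TPM and the red points between 70.9 and 234 TPM, while the 4 other genes overlap more.

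Of the 50 members 35 passed the filter on low values, 30 of them Defa rows, and none (0) of the Defa rows was called between genotypes with limma, where 0 also had an unadjusted p under 0.05. Of all tested genes 5.36% were called and 21.8% had an unadjusted p under 0.05. The authors' deposited table calls 0 Defa rows as well. The smallest adjusted p of a Defa row was 0.252 for Defa5 (log2 difference 0.67). Among the tested Defa rows 19 of 30 had a positive difference, with a median of 0.09, against 6294 of 12605 and a median near 0 (-0.00066) over all tested genes.

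Wide intervals belonged to copies under 10 TPM in at least 1 mouse. Defa2, Defa20 and Defa32 have no window of their own, so a 0 for these does not show that the copy was silent. The log2 difference was 1.88 for Defa32 (95% interval -2.88 to 6.64, limma adjusted p = 0.654) and -1.47 for Defa2 (95% interval -8.96 to 6.02, limma adjusted p = 0.837). It was -0.63 for Defa20 (95% interval -6.20 to 4.94), which did not pass. With intervals of this width a difference of several log2 units could not be told from 0 for such copies. Defa22, above 0 in all mice but uneven between them, differed by -0.32 (95% interval -2.53 to 1.88) and did not pass.

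**Figure D5:**
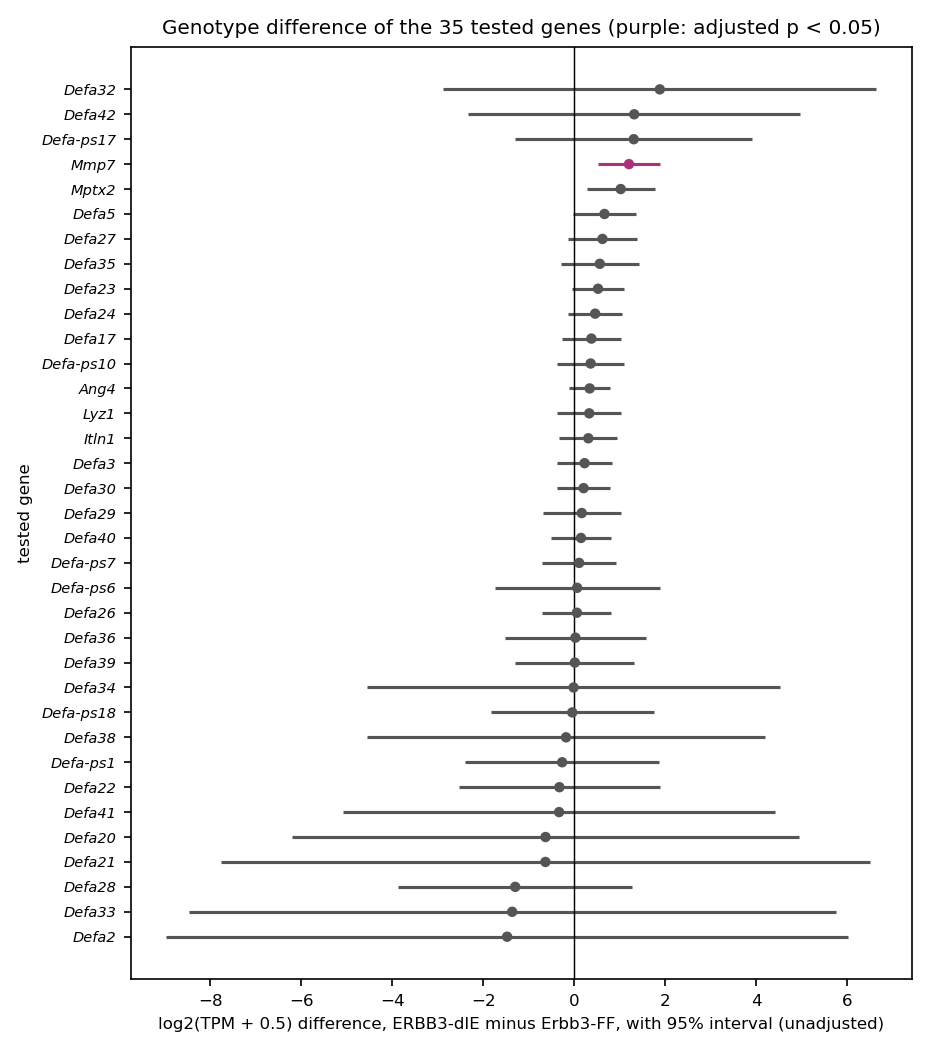
Log2(TPM + 0.5) difference between genotypes (ERBB3-dIE minus Erbb3-FF, horizontal axis) for the 35 tested genes, with unadjusted 95% intervals, Mmp7 in purple as the gene with an adjusted p under the threshold. Copies under 10 TPM in at least 1 mouse, such as Defa2 (-8.96 to 6.02) and Defa32 (-2.88 to 6.64), have the widest intervals.

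Between litters, 28 of the 35 tested members were lower in litter B than in litter A, with a median log2 difference of -0.36, against a median of 0.05 over all tested genes. None (0) passed the limma test, where 8.55% of all tested genes were called. An unadjusted p under 0.05 was found for 3 members, against 29.4% of all tested genes. The largest difference of the 3 was that of Mptx2 at -1.11 (adjusted p = 0.0677), followed by Mmp7 at -0.96 (adjusted p = 0.078). Without Erbb3-FF mouse 3, the library that stood apart from litter A, 5 members were called lower in litter B and 0 higher. Of all genes 24.3% were then called, 8.54% lower and 15.7% higher in litter B. The 5 members were Mmp7 (-1.13, limma adjusted p = 0.00841), Mptx2 (-1.25, 0.0167), Defa35 (-1.14, 0.011), Defa23 (-0.63, 0.0217) and Defa5 (-0.79, 0.0242). Without ERBB3-dIE mouse 3, Mmp7 and Mptx2 were called, with 6.34% of all genes called in that fit.

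The difference between genotypes was also compared across litters with an interaction term. No member (0 of 35) was called by limma, the smallest adjusted p was 0.69, and 0 had an unadjusted p under 0.05. Over all genes 0% were called as well, with 1174 (9.31%) at an unadjusted p under 0.05. Without Erbb3-FF mouse 3, 0 members were called (smallest adjusted p 0.212 in limma) and 3 had an unadjusted p under 0.05, while 0.286% of all genes were called.

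Other genes of Paneth cells were followed from a list of 32, of which 16 were tested. Nupr1, a nuclear protein induced by stress, and the chemokine Ccl6 rose in ERBB3-dIE mice, and 0 fell (1.66% of all tested genes were called higher and 3.7% lower). Nupr1 spanned 20.4 to 87.3 TPM among Erbb3-FF mice, with 75.3 to 165 TPM among ERBB3-dIE mice, a log2 difference of 1.41 (SE 0.16, limma adjusted p = 0.00161). Ccl6 was at 188 to 249 TPM and 257 to 483 TPM, a difference of 0.60 (SE 0.10, limma adjusted p = 0.00843), with no overlap between genotypes. Between litters 3 of the 16 were higher and 4 lower in litter B, against 7.16% and 1.4% of all tested genes. Without Erbb3-FF mouse 3 these counts were 3 and 7, against 15.7% and 8.54%.

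From a list of 36 genes that regulate Paneth cells or their secretion, 28 were tested, 4 rose and 0 fell, beside the same 1.66% of genes higher and 3.7% lower. Spdef, a factor for the maturation of goblet and Paneth cells, differed by 1.14 (limma adjusted p = 0.00161), and Atoh1, which commits crypt cells to the secretory lineages, by 0.71 (limma adjusted p = 0.00246). Ern2, a stress sensor of the endoplasmic reticulum, differed by 0.70 (limma adjusted p = 0.0138), and Gfi1, a repressor downstream of Atoh1, by 0.59 (limma adjusted p = 0.0171). Several of these genes also act in goblet cells, whose markers rose as given above. The part of goblet cells in these differences was not tested.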

How the data were processed

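Single-end 75-base mRNA reads from ileal mucosal scrapings of 12 mice were processed by the authors, who deposited 1 table of 55891 genes. Salmon 1.10.0, CASAVA, DESeq2 and the build GRCm39 are named for the authors in the submitters' processing notes, and the annotation release is not given in the sources used here. Per the file headers the authors' columns are TPM per library, a mean normalized count (a signal over all libraries), a log2 fold change with its standard error, a test statistic (a score named stat in the header), and a p-value with its adjusted form. Per the labels each library is 1 numbered mouse.

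The 12605 genes that reached 1 TPM in 6 or more libraries were fitted as log2(TPM + 0.5) with limma 3.58.1 in R 4.3.3, with litter and genotype as additive terms and a variance trend. The p-values were adjusted by the Benjamini-Hochberg method across the 12605 genes and called under 0.05. The interaction was tested in a second model. The steps were tested on simulated data. Read depth per library is not kept in TPM, so no interval from counts is given. Correlations between libraries lay between 0.878 and 0.955.

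Members and gene lists were chosen with earlier results of these data known. Named members are the 5 granule genes, the 8 Defa rows with the highest mean TPM, any called, and the 2 with the largest difference; other copies named were chosen after their values were seen. Windows and coding sequences came from GENCODE M21 (GRCm38, a build other than that of the table) with edlib 1.3.9.post1, and promoters from RefSeq (GRCm38.p6). Of the lists of other cell types (goblet, enterocyte, stem, smooth muscle, B cell, macrophage, neutrophil), counts of calls are given. Of 6 stem cell and 6 macrophage markers tested, 0 were called between genotypes by limma; 2 and 0 had an unadjusted p under 0.05. Of 6 smooth muscle markers 1 fell (Mylk, log2 difference -0.56, limma adjusted p = 0.0398). Of 2 B cell markers tested 0 were called (1 at an unadjusted p under 0.05), and no neutrophil marker passed the filter. Alternatives covered pseudocount, filter, rescalings, litter, mouse number as a block, robust variance, library weights, leaving out libraries and the authors' own test. Figures were drawn with matplotlib 3.10.9.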

Additional observations from a re-analysis of the deposited data

Results flagged for a closer look

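Both results that stood out came from Erbb3-FF mouse 5. Its summed Defa TPM of 66698 lay apart from the other 5 Erbb3-FF mice, with a gap to the nearest of 0.661 of the group's range, and its Ang4 level of 176 TPM did so with a gap of 0.679. Both exceed Dixon's 95% critical value for 6 samples. These were 2 of 32 groups of 6 examined, and chance alone flags about 1 in 20.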

How the results depend on the processing

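The difference of Mmp7 kept its sign in all 28 alternatives (0.77 to 1.42) and its call in 7. It was lost, for example, with a pseudocount of 0.1 (limma adjusted p = 0.0504), robust variance (0.0511), no filter (0.112) and no litter term (0.218). The count of members called between genotypes was 1, and 0 with a pseudocount of 0.1, with no filter, after rescaling without ribosomal-sequence and mitochondrial genes or without the members, with no litter term, with robust variance, in litter A (also without Erbb3-FF mouse 3) or B alone and without Erbb3-FF mice 5 and 6; it was 2 by the authors' own test (Mmp7 and Mptx2), and 0 to 1 when 1 mouse was left out. Mptx2 passed by that test only (0.85, adjusted p = 0.0334). Over all genes, 676 were called; 350 with no filter, 1042 after the ribosomal and mitochondrial rescaling, 243 with no litter term, 6 in litter A (39 without Erbb3-FF mouse 3), 15 in litter B, 1080 with library weights, 1950 by the authors' own test, and 303 to 797 without 1 mouse. Members called between litters numbered 4 with library weights (Defa23 and Defa35 among them), where 21.8% of all genes were called. Without 1 mouse they numbered 0 to 5, where 0.801% to 24.3% of all genes were called. The cause of these shifts was not tested; the litter fits hold fewer samples.

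Between genotypes no call of a named Defa copy changed, but signs did. Defa-ps7 was at -0.33 in litter A and -0.20 with library weights (-0.17 to 0.24 without 1 mouse), Defa20 at 3.82 in litter B and 0.29 without Erbb3-FF mice 5 and 6 (-3.27 to 1.76), Defa22 at 0.026 in litter B and 0.27 with library weights (-0.94 to 0.14), Defa32 at -0.16 in litter B and -0.10 by the authors' own test, and Defa2 at 1.12 with library weights (-3.60 to 0.24). Defa2 has no value under the filter of 5 TPM, which it did not pass. The ratio of the summed Defa TPM moved by less than the SD between mice under its 21 alternatives. Litter A without Erbb3-FF mouse 3 and the sums without pseudogenes and without copies under 10 TPM were chosen after seeing the data. In the first of these Lyz1 was at -0.0038, Itln1 at -0.23, Defa-ps7 at -0.79, Defa3 and Defa30 at -0.22 and Defa35 at -0.068.

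Mice of the same number correlated at 0.152, 0.0739, 0.114, 0.357, 0.24 and 0.167 (numbers 1 to 6) in their deviations, so the numbers are not taken to pair them, and only numbers 4 and 5 matched their own best. With mouse number as a replicate block 216 genes and 0 members were called, Mmp7 was at 0.81 (limma adjusted p = 0.0692), and the signs of Defa-ps7 (-0.27), Defa3 (-0.053) and Defa2 (0.045) turned. Depth is lost in TPM, so its limits on low copies are unknown.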
